A study of Homo sapiens with 6 samples.

Results

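The 8 tubulin genes described here were TUBA1A, TUBA1B, TUBA1C, TUBB, TUBB2A, TUBB4B, TUBB6 and TUBG1, taken by gene symbol from a table of 14574 genes, and all 8 were found in it and passed the filter on low values. Knocking out LARP1 was accompanied by lower levels of 4 of these mRNAs in the non-polysomal fraction of drug-treated HCT116 cells, by a higher level of TUBA1A, and by no called difference in TUBB4B, TUBB6 and TUBG1. Over all genes tested 25.1% were called lower and 3.77% higher. With each library centred on its median gene, or with TMM factors, 2 members (TUBA1C and TUBB) were called lower. After centring, 16.2% of all genes were called lower and 14.6% higher. TUBA1C moved most, to 0.467 of its parental level, while TUBA1A stood at 1.74 times its parental level. The alpha-tubulin paralogs TUBA1A and TUBA1C, whose coding sequences share 95.9% of aligned bases, thus differed in opposite directions.

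HCT116 is an established human colorectal carcinoma line. The groups were HCT116 LARP1 KO cells (2 RNA-seq libraries), parental cells whose RNA was converted into transcription start site (TSS) libraries (2), and parental cells (2 RNA-seq libraries); each TSS library came from the RNA of the parental RNA-seq library with the same number. All cells, controls included, were under TAK228, which blocks mTOR kinase activity, for 48 h at 250 nM, with fresh drug after 24 h. RNA came from the gradient fractions between the 40S and 80S peaks, so every value is a level in that fraction, not in the whole cell or on polysomes. The labels speak of biological replicates and of LARP1 KO pools, but do not say what was pooled, which part of LARP1 was edited or whether cultures were separate, so p-values measure a spread that may be technical. In such bulk RNA, fewer cells carrying an mRNA and less of it per cell cannot be told apart.

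Tubulins are the subunits of microtubules. Alpha- and beta-tubulin pair into heterodimers that polymerise into the filament, and gamma-tubulin sits in a ring complex from which new filaments grow. Mammals carry several alpha and beta genes that encode nearly the same protein but are used to different extents in different tissues. Cells also adjust tubulin mRNA to the amount of free dimer: when soluble tubulin is in excess, the factor TTC5 recognises the nascent chain on the ribosome and, through SCAPER and the CCR4-NOT deadenylase, the mRNA being translated is degraded. LARP1 is an RNA-binding protein that binds capped mRNAs starting with a 5′ terminal oligopyrimidine (TOP) tract, among them those for ribosomal proteins and translation factors when mTOR is off.

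The libraries held 22039174 and 21388111 reads in LARP1 KO cells, 26955481 and 24446561 in the TSS libraries and 19038642 and 25323973 in parental RNA-seq. Outside mitochondrial genes, 6267820 to 9063478 reads remained per library. LARP1 mRNA fell to 356 and 284 normalised read counts in LARP1 KO libraries, against 633 and 770.3 in parental RNA-seq libraries (log2 fold change -1.13 with SE 0.18, limma adjusted p = 2.86e-09). Of 6 epithelial markers, EPCAM, KRT8, KRT18, KRT19 and CDH1 were listed, summing to 11889 and 10286 in LARP1 KO and 13719.8 and 13035 in parental RNA-seq libraries; LGALS4 was not listed. This sum was lower in LARP1 KO under the deposited scaling, which also put the median gene lower, but the markers differed. KRT19 had 2563 and 2200 in LARP1 KO against 4489 and 4085 in parental RNA-seq libraries, and EPCAM 360 and 240 against 576 and 544. KRT18 was also lower (5050 and 4533 against 5249 and 5060), though its TSS values of 4811 and 5043 overlapped those of LARP1 KO. CDH1 was lower too (64.9 and 52.6 against 86.2 and 137), while KRT8 overlapped, at 3851 and 3261 against 3320 and 3209. The part of these differences in the tubulin results was not tested. Of 8 markers of blood, endothelium and fibroblasts, COL1A1 alone was listed, at 38.2 and 12.97 in LARP1 KO and 21.5 and 12.2 in parental RNA-seq libraries. The deposited scaling, which is used throughout, put the median gene at a log2 fold change of -0.29. Centring each library on its own median gene removes that shift. The scaling divided reads by 1.31 and 1.46 in LARP1 KO and by 0.743 and 0.820 in parental RNA-seq libraries. Before scaling, TUBA1B had 7593 and 7106 reads in LARP1 KO against 5266 and 5749 in parental RNA-seq libraries. TUBB had 4529 and 4312 against 4112 and 4352, and TUBA1C 2475 and 2373 against 2803 and 3069. TUBB2A had 128 and 158 against 139 and 117. Of these, TUBA1C alone had fewer reads in both LARP1 KO libraries. The table held 0 ERCC rows, so the spike-in basis of the scaling was not checked.

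The members sit at scattered places in the genome, apart from the alpha genes, which are neighbours on chromosome 12. In GRCh38 with GENCODE release 29 annotation, TUBA1B (ENSG00000123416.15) spans chr12:49127782-49131397, TUBA1A (ENSG00000167552.13) chr12:49184796-49189324, both on the minus strand, and TUBA1C (ENSG00000167553.15) chr12:49188736-49274603 on the plus strand. The annotated gene bodies of TUBA1A and TUBA1C therefore overlap on opposite strands, and whether strand was used in counting is not given in the sources used here. TUBB (ENSG00000196230.12) lies at chr6:30720201-30725426 and TUBB2A (ENSG00000137267.5) at chr6:3153669-3157526. TUBB4B (ENSG00000188229.5) lies at chr9:137241213-137243707, TUBB6 (ENSG00000176014.12) at chr18:12307669-12344320 and TUBG1 (ENSG00000131462.7) at chr17:42609676-42615234. The alpha and beta members have 4 exons each and coding regions of 1332 to 1353 bases without the stop codon, while TUBG1 has 11 exons.

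Because paralogs are so alike, the share of each mRNA that a read can place was measured. Coding sequences were 95.9% to 97.2% identical among the alpha members, 81.0% to 87.3% among the beta members and 52.2% to 55.8% between TUBG1 and the others. Of all windows of 150 bases, the read length, in the main transcript, 100% were found in no other GENCODE gene for TUBB4B and for TUBB6. The shares of windows free of same-strand copies were 97.5% for TUBB, 93.8% for TUBG1, 93.2% for TUBA1C, 93.1% for TUBA1A and 80.9% for TUBA1B. TUBB2A had the lowest, 50.6%, with 714 of its 1446 windows also in TUBB2B. Counting antisense genes as well, TUBA1B dropped to 35.8%, since the annotated antisense transcript AC011603.2 covers 949 of its 1478 windows. The values of TUBB2A and of the alpha genes, TUBA1B above all if strand was not used, are uncertain to the extent that reads were shared out among copies.

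The start of an mRNA is where LARP1 binds, so the 15 bases before and the 15 bases from the RefSeq start (GRCh38.p14) are shown for all 8 members. Where RefSeq lists several starts, the one nearest to the start of GENCODE's main transcript is given. Capitals mark a C followed by at least 4 C or T letters that begins within 5 bases of the start; where none is marked, none begins within that reach, though one may lie further in.
TUBA1A, chr12:49189066-49189095, minus strand: atccgcctatgtgccgcaggttctcttaca
TUBA1B, chr12:49131381-49131410, minus strand: cgccggccccgccctagtgcgttacttacc
TUBA1C, chr12:49265067-49265096, plus strand: gccggccaccCTTTCactacttctcccccg
TUBB, chr6:30720337-30720366, plus strand: ccctctcctttCTCCCTCTCagaaccttcc
TUBB2A, chr6:3157530-3157559, minus strand: tgggggggcggcggcaggtctctgcgcagc
TUBB4B, chr9:137241272-137241301, plus strand: cggagcgtcggttgtagcactctgcgcgcc
TUBB6, chr18:12308226-12308255, plus strand: gcgcagccggcccgcagttgccgctgtcgt
TUBG1, chr17:42609668-42609697, plus strand: tgcggcgagcgggctggcgtgcggcgccgt

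All 8 members matched RefSeq, with 12 starts in all, since TUBA1C has 3 and TUBB and TUBB6 have 2 each. TUBB alone had the tract at the start base itself, within an unbroken run of 25 pyrimidines of which 20 lie upstream of the start. Among all 35116 RefSeq starts, 4.07% had the tract at the start base and 0.162% lay in a pyrimidine run that long, while 56.0% of 75 starts of RPS and RPL genes had the tract at the start base. Allowing 5 bases on either side, 4 of the 12 tubulin starts (2 of TUBA1C and both of TUBB) had a tract beginning in reach, or 33.3%, against 21.1% of all starts. In the TUBA1C start shown, the marked tract fills the 5 bases before the start base, so an mRNA from that start would not contain it. The search used the transcribed strand only, since the tract is a feature of the RNA. The deposited table counts reads per gene, so it does not say which start these cells used, and the start RefSeq lists can differ from it: for TUBA1A, GENCODE's main transcript begins at 49189324 and RefSeq's at 49189080. For TUBB, GENCODE's begins at 30720201 and the RefSeq start shown is 30720352. For TUBA1C these are 49264907 and 49265082. The tracts marked above are therefore those near RefSeq's starts.

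The alpha members supply most of the alpha-tubulin mRNA of dividing cells. TUBA1B, the most abundant tubulin in every library, had 5800.4 and 4852 normalised read counts in LARP1 KO libraries, 6558 and 6698 in TSS libraries, and 7089 and 7007 in parental RNA-seq libraries. Both LARP1 KO libraries lay below all 4 parental libraries, and the LARP1 KO libraries were further apart than the parental ones. TUBA1B fell in LARP1 KO cells (log2 fold change -0.41 with SE 0.14, limma adjusted p = 0.0193), by little more than the median gene. After centring, its log2 fold change was -0.10 (limma adjusted p = 0.415), so the call rested on the scaling; it was also lost without LARP1 KO replicate 2 (0.0678), without parental replicate 1 (0.328), without parental replicate 2 (0.364) and with the replicate block (0.0894).

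TUBA1C had 1891 and 1620.3 normalised read counts in LARP1 KO libraries, 3507 and 3358 in TSS libraries, and 3773 and 3740.5 in parental RNA-seq libraries. The genotypes were far apart, and the LARP1 KO libraries were further apart (SD 191) than the TSS (SD 105) or parental RNA-seq libraries (SD 23.1). TUBA1C fell in LARP1 KO cells (log2 fold change -1.10 with SE 0.15, limma adjusted p = 2.67e-12), and also after centring (-0.79, limma adjusted p = 4.61e-07). Its call held in all 15 alternatives tried, with an adjusted p of at most 0.0208.

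TUBA1A, the alpha gene best known from developing neurons, was a minor transcript here. It had 153 and 135 normalised read counts in LARP1 KO libraries, 71.8 and 49.6 in TSS libraries, and 96.9 and 68.3 in parental RNA-seq libraries. Behind these stood 200 and 197 reads in LARP1 KO, 80 and 39 in TSS and 72 and 56 in parental RNA-seq libraries. Every LARP1 KO value lay above every parental value. TUBA1A rose in LARP1 KO cells (log2 fold change 0.81 with SE 0.24, limma adjusted p = 0.00396), and by 1.12 after centring (limma adjusted p = 1.81e-04). Without parental replicate 2 the call was lost (log2 fold change 0.56, limma adjusted p = 0.299), as it was without the intensity trend (0.0872), while with the TSS libraries as parental libraries it held (1.25, limma adjusted p = 1.32e-06). That is no independent check: those libraries hold the same parental RNA, and their log2 TUBA1A level over that of the RNA-seq library from the same RNA was -0.43 and -0.45.

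TUBB, the main beta-tubulin gene of proliferating cells, had 3459.8 and 2944 normalised read counts in LARP1 KO libraries, 5455 and 5380.2 in TSS libraries, and 5535 and 5304 in parental RNA-seq libraries. The 4 parental libraries lay close together and both LARP1 KO libraries far below them. TUBB fell (log2 fold change -0.76 with SE 0.15, limma adjusted p = 1.87e-06), also after centring (-0.45, limma adjusted p = 4.57e-04). It passed without each replicate in turn, and was not called without limma's intensity trend (0.0633).

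TUBB2A, one of a pair of nearly identical beta genes with TUBB2B, had 97.8 and 108 normalised read counts in LARP1 KO libraries, 159 and 149 in TSS libraries, and 187 and 143 in parental RNA-seq libraries. The groups did not overlap, although the parental RNA-seq libraries differed by more than the LARP1 KO ones. TUBB2A fell (log2 fold change -0.66 with SE 0.23, limma adjusted p = 0.0161). The call was lost after centring (-0.35, limma adjusted p = 0.163), with TMM factors (0.147), without the intensity trend (0.113) and with the replicate block (0.0597). DESeq2 on the recovered reads did not call it either (DESeq2 adjusted p = 0.0658). It was also lost without LARP1 KO replicate 1 (log2 fold change -0.59), parental replicate 1 (-0.47) or parental replicate 2 (-0.86).

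TUBB4B, a broadly expressed beta gene also used in cilia, had 848 and 737 normalised read counts in LARP1 KO libraries, 832 and 898 in TSS libraries, and 915 and 1024 in parental RNA-seq libraries. Both LARP1 KO libraries lay below both parental RNA-seq libraries, but 1 of them, at 848, lay between the TSS libraries. The log2 fold change was -0.29, with a 95% interval of -0.61 to 0.03 (limma adjusted p = 0.171), and 0.02 after centring. It was called without LARP1 KO replicate 1 (limma adjusted p = 0.0364).

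TUBB6, a more divergent beta gene, had 387 and 357 normalised read counts in LARP1 KO libraries, 336 and 383 in TSS libraries, and 416 and 394 in parental RNA-seq libraries. TUBG1, the gamma-tubulin that nucleates filaments, had 248 and 281 in LARP1 KO libraries, 281 and 238 in TSS libraries, and 288 and 278 in parental RNA-seq libraries. LARP1 KO values overlapped the parental RNA-seq values for TUBG1 and the TSS values for both genes. The log2 fold changes were -0.12 (95% interval -0.48 to 0.24, limma adjusted p = 0.663) for TUBB6 and -0.10 (95% interval -0.48 to 0.28, limma adjusted p = 0.746) for TUBG1, and both turned positive after centring, at 0.19 and 0.21. Neither interval leaves out a decrease of nearly 0.48 on the log2 scale.

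**Figure D1:**
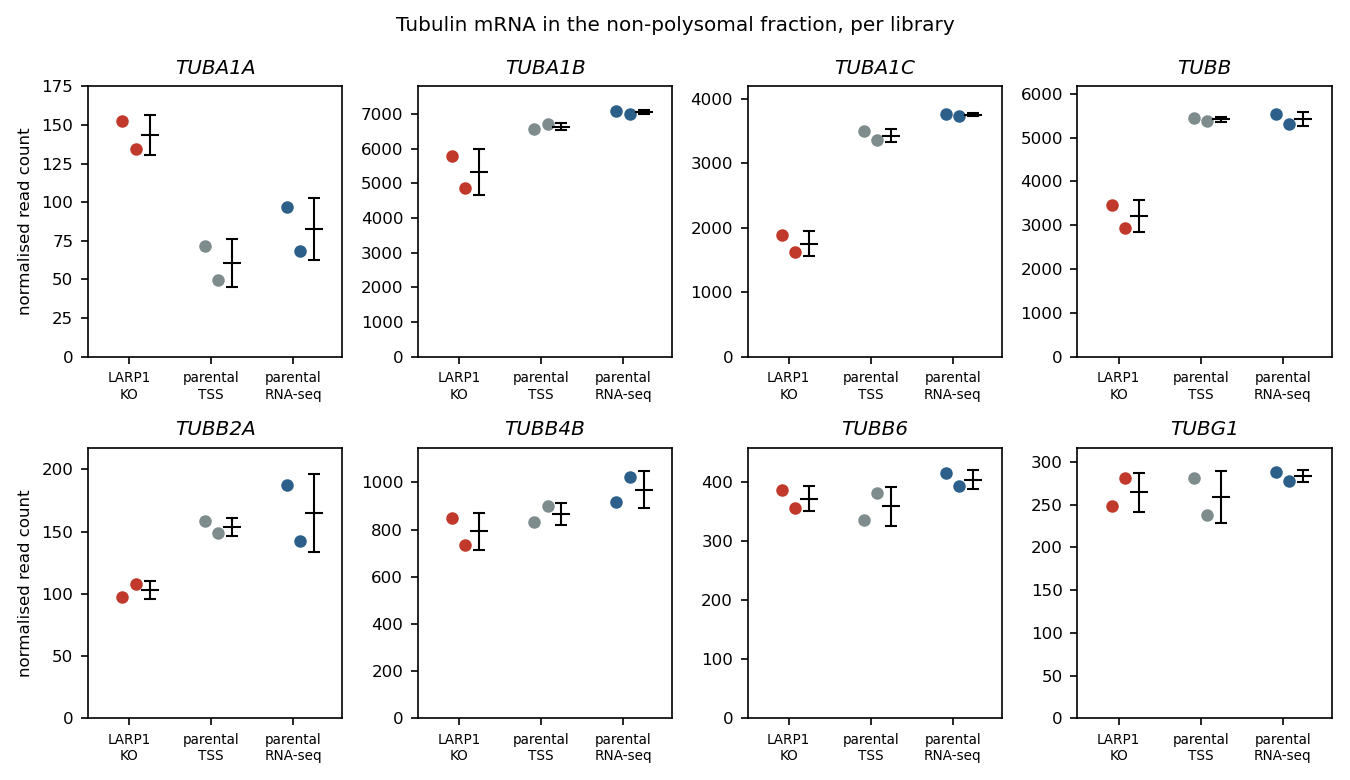
Normalised read counts of the 8 tubulin genes on linear axes from 0, with 1 point per library and, beside the points, the mean with its SD (n = 2 libraries). Both LARP1 KO libraries of TUBA1C (1891 and 1620.3) and of TUBB (3459.8 and 2944) sit below all parental libraries, and both of TUBA1A (153 and 135) sit above them.

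Of the 8 members, 4 fell, 1 rose and 3 were not called. Over all 14561 genes tested, 28.8% were called, with 25.1% lower and 3.77% higher in LARP1 KO. Both LARP1 KO libraries lay below both parental RNA-seq libraries for 6 members, a position that 50.4% of all genes had, and above them for TUBA1A, a position that 12.4% of all genes had. The members' median log2 fold change was -0.35, close to the -0.29 of all genes. TUBA1C stood at percentile 12.7 of all log2 fold changes, TUBB at 21.4, TUBB2A at 25.5 and TUBA1B at 40.7, while TUBB4B was at 50.1, TUBB6 at 64.1, TUBG1 at 65.9 and TUBA1A at 96.0. After centring, TUBA1C and TUBB still fell and TUBA1A still rose, and the other 5 were not called; 30.8% of all genes were then called, 16.2% lower and 14.6% higher. Both LARP1 KO libraries then lay below both parental RNA-seq libraries for 3 members and above them for 2, positions that 31.3% and 33.1% of all genes had. In the authors' deposited table, where the parental side also holds the TSS libraries, the same 5 members had an adjusted p under 0.05, with log2 fold changes given as parental over LARP1 KO of 1.03 for TUBA1C, 0.76 for TUBB and -1.01 for TUBA1A.

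**Figure D2:**
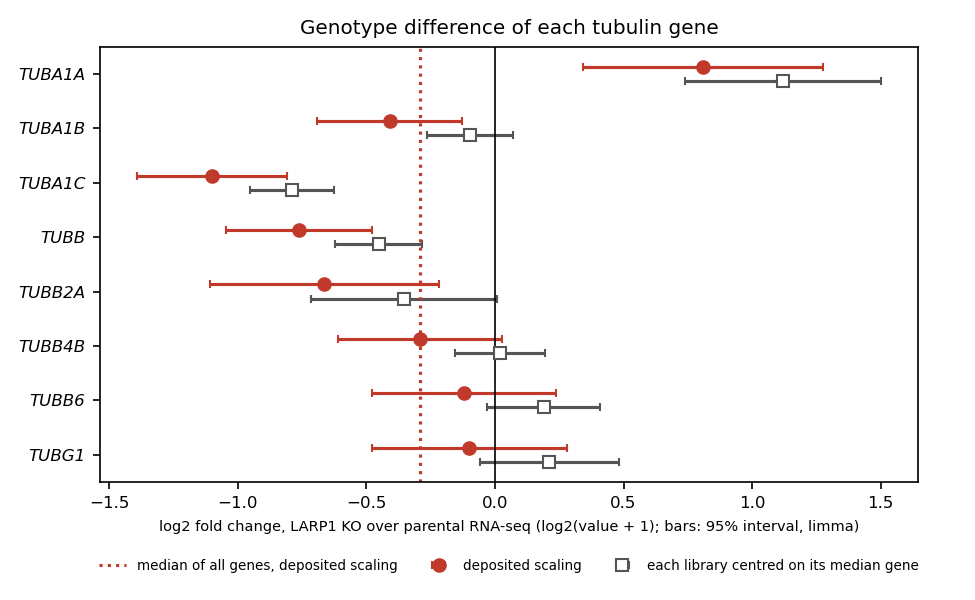
Log2 fold change of each member, LARP1 KO over parental RNA-seq libraries, with 95% intervals from limma (n = 2 libraries per group), under the deposited scaling (filled circles) and with each library centred on its median gene (open squares); the dotted line is the median of all genes, -0.29. TUBA1C and TUBB stay left of 0 and TUBA1A right of 0 under both scalings, while TUBA1B moves from -0.41 to -0.10.

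The size of a difference between paralogs does not depend on the scaling, because a ratio of 2 genes within a library cancels it. The intervals given here do depend on it, since their standard errors come from the fit under the deposited scaling. The log2 ratio of TUBA1B to TUBA1C was 1.62 and 1.58 in LARP1 KO libraries, 0.90 and 1.00 in TSS libraries, and 0.91 and 0.91 in parental RNA-seq libraries. The libraries of a genotype nearly coincided and the genotypes were well apart: the log2 fold changes of TUBA1B and TUBA1C differed by 0.69 (95% interval 0.29 to 1.10). TUBA1A differed more, by 1.91 from TUBA1C (95% interval 1.36 to 2.46) and by 1.22 from TUBA1B (0.67 to 1.77), and its ratio to both was higher in every LARP1 KO library than in every parental library.

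Among the beta genes, the log2 ratio of TUBB to TUBB6 was 3.16 and 3.04 in LARP1 KO libraries, 4.02 and 3.81 in TSS libraries, and 3.73 and 3.75 in parental RNA-seq libraries. The log2 fold change of TUBB was thus lower than that of TUBB6 (difference -0.64, 95% interval -1.10 to -0.19) and than that of TUBB4B (difference -0.47, 95% interval -0.90 to -0.04). TUBB and TUBB2A differed by -0.10 (95% interval -0.63 to 0.43), with overlapping ratios, and TUBB4B and TUBB6 by -0.17 (95% interval -0.65 to 0.31). For TUBB2A against TUBB4B the difference was -0.37 (95% interval -0.92 to 0.18) and against TUBB6 -0.54 (95% interval -1.11 to 0.03). TUBB2A, a low gene, had a standard error of 0.23 under the deposited scaling and 0.18 after centring. Of the 9 pairs compared, 5 had an interval that left out 0 under the deposited scaling. How often pairs of other genes do so was not computed, and the 9 pairs reuse the same genes. Intervals from the centred standard errors were not computed. These intervals come from the limma standard errors, take the genes as independent and are not adjusted for the 9 pairs; the exact permutation test, two-sided, cannot go below 0.33 with 2 libraries against 2, or 0.429 as the lowest value adjusted over the pairs here, and so made no call.

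**Figure D3:**
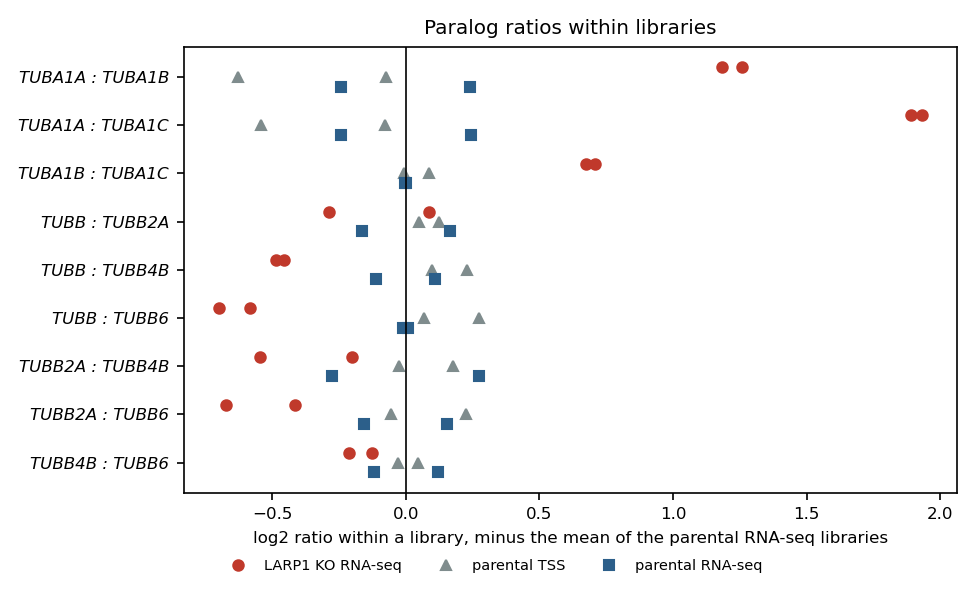
Log2 ratio of 9 paralog pairs within each library, with the mean of the parental RNA-seq libraries subtracted; each symbol is 1 library (2 per group). The 3 alpha pairs have their LARP1 KO libraries to the right of all parental libraries, by 1.91 on average for TUBA1A against TUBA1C, and TUBB against TUBB4B and TUBB6 have them to the left.

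With these differences between paralogs, the make-up of tubulin mRNA in the non-polysomal fraction also differed between LARP1 KO and parental libraries. Levels were divided by transcript length and summed over 5 measured alpha genes and over 7 measured beta genes, which adds TUBA4A, TUBA8, TUBB2B, TUBB3 and TUBB4A to the members. TUBA1B made up 82.7% and 82.3% of alpha-tubulin mRNA per length in LARP1 KO libraries, 76.4% and 77.6% in TSS libraries, and 76.4% and 76.4% in parental RNA-seq libraries. TUBA1C made up 14.6% and 14.9% in LARP1 KO libraries, 22.1% and 21.1% in TSS libraries, and 22.04% and 22.12% in parental RNA-seq libraries. Shares sum to the whole, and TUBA1B took a larger one although its own level was lower in LARP1 KO, because TUBA1C was lower by more. TUBA1A stood at 1.85% and 1.94% in LARP1 KO and 0.887% and 0.633% in parental RNA-seq libraries.

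In the beta family, TUBB made up 51.5% and 50.7% of the summed level per length in LARP1 KO libraries, 59.0% and 58.2% in TSS libraries, and 57.6% and 57.0% in parental RNA-seq libraries. TUBB4B made up 20.6% and 20.7% in LARP1 KO libraries, 14.7% and 15.8% in TSS libraries, and 15.5% and 17.9% in parental RNA-seq libraries. TUBB6 made up 7.45% and 7.95% in LARP1 KO libraries, 4.70% and 5.36% in TSS libraries, and 5.60% and 5.47% in parental RNA-seq libraries. For these 3 genes the LARP1 KO libraries lay outside the range of all 4 parental libraries. So did TUBB4A, at 0.832% and 0.910% in LARP1 KO, 0.446% and 0.576% in TSS and 0.396% and 0.342% in parental RNA-seq libraries. Each TSS library shares its RNA with a parental RNA-seq library, and shares that sum to the whole are not independent. How often other genes lie apart in this way was not computed. TUBB2A overlapped, at 2.44% and 3.11% in LARP1 KO and 3.26% and 2.56% in parental RNA-seq libraries. The exact permutation p, two-sided, was 0.33 for each share that did not overlap between LARP1 KO and parental RNA-seq libraries, the smallest this design allows.

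**Figure D4:**
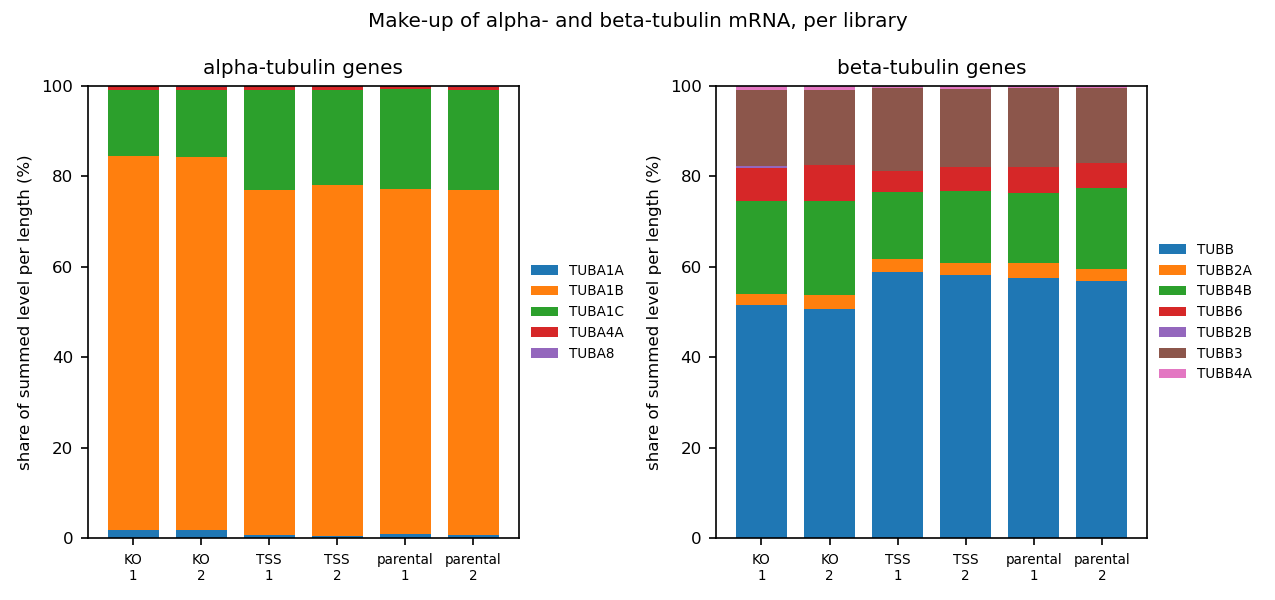
Stacked shares, in percent, of each measured alpha-tubulin gene (left) and beta-tubulin gene (right) in the summed level per transcript length, 1 bar per library. TUBA1C narrows to 14.6% and 14.9% in the LARP1 KO bars against 22.04% and 22.12% in the parental RNA-seq bars, and TUBB to 51.5% and 50.7% against 57.6% and 57.0%.

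Both families as a whole were lower by about the same factor under the deposited scaling, which includes the shift of the median gene. The summed alpha-tubulin value was 7296 ± 884 in LARP1 KO and 10979.7 ± 92.4 in parental RNA-seq libraries (SD, n = 2 each), a ratio of 0.664. The summed beta-tubulin value was 5227 ± 549.6 in LARP1 KO and 8069.8 ± 200.2 in parental RNA-seq libraries (SD, n = 2 each), a ratio of 0.648. The ratio of alpha to beta mRNA per length was 1.71 and 1.66 in LARP1 KO libraries, 1.52 and 1.53 in TSS libraries, and 1.59 and 1.62 in parental RNA-seq libraries. The genotypes did not overlap in it, though the difference was small.

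Per kilobase of transcript, the members spanned a wide range. In LARP1 KO libraries the order was TUBA1B (3565 and 2982 normalised reads per kilobase), TUBB (1296 and 1103), TUBA1C (630.0 and 539.9), TUBB4B (518 and 450.1), TUBB6 (188 and 173), TUBG1 (154 and 174), TUBA1A (79.8 and 70.2) and TUBB2A (61.3 and 67.6). In parental RNA-seq libraries it was TUBA1B (4357 and 4307), TUBB (2073 and 1987), TUBA1C (1257 and 1246), TUBB4B (559 and 625), TUBB6 (202 and 191), TUBG1 (179 and 172), TUBB2A (117 and 89.4) and TUBA1A (50.6 and 35.6). The 2 lists are the same down to TUBG1, and TUBA1A and TUBB2A change places. Within LARP1 KO libraries the values of TUBB6 and TUBG1 overlapped, and TUBA1A lay only just above TUBB2A.

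The TSS libraries measured the same parental RNA by another protocol. Their level over that of the RNA-seq library from the same RNA, in log2 units, ran from -0.24 to 0.06 in both libraries for TUBA1B, TUBA1C, TUBB, TUBB2A, TUBB4B and TUBG1. TUBB6 gave -0.31 and -0.04, and TUBA1A -0.43 and -0.45, the lowest of the 8 in both libraries.

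The genes nearest to TUBA1B in pattern over the 6 libraries were searched among 7078 protein-coding genes above the median level, by the root mean square difference of mean-centred log2(value + 1). They were IRF2BPL (0.0198), NFE2L1 (0.0205), MBP (0.0258), HNRNPH1 (0.0300) and SURF4 (0.0300), whose log2 fold changes ran from -0.44 to -0.40. These values describe 6 libraries from 2 genotypes and carry no test.

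The remaining tubulins were mostly low. Counts in this and the following lists stand against 25.1% of all genes lower and 3.77% higher, or 16.2% lower and 14.6% higher after centring. Of 15 tubulins listed, 8 were measured, and of these 2 were called lower and 1 higher, or 1 lower and 1 higher after centring. TUBB3, a beta gene best known from neurons and often expressed in carcinoma lines, had 752 and 635 normalised read counts in LARP1 KO and 1121 and 1023 in parental RNA-seq libraries, and fell (log2 fold change -0.63 with SE 0.16, limma adjusted p = 7.89e-04), also after centring. The TUBB3 call was lost without the intensity trend and without parental replicate 1 or parental replicate 2. Over all alternatives its log2 fold change ran from -0.75 to -0.32. TUBE1, the epsilon-tubulin of centrioles, fell to 81.0 and 73.1 in LARP1 KO libraries, against 124 and 123 in parental RNA-seq libraries (-0.68, limma adjusted p = 0.0238), but not after centring (0.126) nor without LARP1 KO replicate 2 or either parental replicate (adjusted p up to 0.962 over the alternatives), and its TSS values of 96.0 and 63.6 overlapped those of LARP1 KO. TUBB2B was called higher (limma adjusted p = 0.0343) on 17.6 and 6.83 in LARP1 KO and 0 and 10.97 in parental RNA-seq libraries, values that overlap and that come from a gene sharing sequence with TUBB2A. That call was lost after centring (0.0727) and in 11 of the 15 alternatives in all, among them edgeR, DESeq2, the replicate block and leaving out LARP1 KO replicate 1, LARP1 KO replicate 2 or parental replicate 1 (adjusted p 6.17e-04 to 0.994, log2 fold change 0.01 to 3.59). TUBB4A (53.5 and 50.5 in LARP1 KO, 36.3 and 30.5 in parental RNA-seq libraries) did not pass (0.63 on the log2 scale, limma adjusted p = 0.122), but did after centring (0.94, limma adjusted p = 0.0105). TUBA4A gave -0.41, TUBD1 -0.24, TUBA8 -0.19 and TUBG2 0.04, none called.

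Chaperones of the prefoldin and CCT families take up nascent tubulin, and the cofactors TBCA to TBCE then assemble the dimer. Of 8 CCT subunits, 6 fell and 0 rose, under both scalings, with a median log2 fold change of -0.69 (-0.38 after centring). CCT3 fell to 1516 and 1339.7 in LARP1 KO, against 6360.5 and 5942 in parental RNA-seq libraries (-2.11 with SE 0.15, limma adjusted p = 1.63e-44), and CCT4 fell by 1.81 on the log2 scale. Of 6 prefoldin subunits, 2 fell and 0 rose, or 2 fell and 1 rose after centring (median -0.08, or 0.23 centred). Those that fell were PFDN5 (-1.61, limma adjusted p = 6.11e-24) and PFDN4 (-1.70, limma adjusted p = 1.16e-11), with the other 4 between -0.12 and 0.16. Of 7 genes in the cofactor list (TBCA to TBCE, TBCEL and ARL2), 3 fell and 0 rose (median -0.38). After centring, 1 fell and 2 rose (median -0.07). TBCA, which receives beta-tubulin from the chaperonin, fell to 242 and 209.6 in LARP1 KO, against 763 and 773 in parental RNA-seq libraries (-1.76 with SE 0.18, limma adjusted p = 5.22e-21). TBCD, the beta-tubulin cofactor next in line, fell by 0.62 on the log2 scale (limma adjusted p = 0.0195), a call lost after centring (0.148) and without LARP1 KO replicate 2 or either parental replicate (adjusted p up to 0.387 over the alternatives).

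Of 20 genes of the gamma-tubulin ring complex, its anchors and augmin, the complex that branches new filaments from old ones, 6 fell and 0 rose, with a median of -0.37, and after centring 5 fell and 3 rose, with a median of -0.06. The share that fell was near that of all genes. HAUS4, an augmin subunit, fell most of all genes in these lists, to 105 and 90.1 normalised read counts in LARP1 KO, against 992 and 858 in parental RNA-seq libraries (-3.23 with SE 0.19, limma adjusted p = 5.08e-62). MZT2A, a small ring complex subunit with a near copy in MZT2B, fell to 643 and 632, against 1298 and 1200.5 (-0.97, limma adjusted p = 3.97e-08). TUBG1 itself, the core of that complex, was not called.

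The autoregulation list of 12 genes had 2 called lower and 0 higher, with a median of -0.23, but 1 lower and 2 higher after centring, with a median of 0.09. TTC5 (-0.05, limma adjusted p = 0.913) and SCAPER (-0.47, limma adjusted p = 0.193) were not called under either scaling. CNOT10 fell (-0.87 with SE 0.20, limma adjusted p = 1.71e-04; without parental replicate 2 adjusted p = 0.0920), and CNOT6, a deadenylase, fell by 0.52 (limma adjusted p = 0.0214), but not after centring (0.218) nor without LARP1 KO replicate 2 or either parental replicate (adjusted p up to 0.409 over the alternatives). Among 16 enzymes that modify tubulin, 3 fell and 2 rose, with a median of -0.03, and after centring 1 fell and 4 rose, with a median of 0.28. VASH2, which removes the terminal tyrosine of alpha-tubulin, rose to 85.6 and 77.8 in LARP1 KO, against 5.38 and 12.2 in parental RNA-seq libraries (3.17 with SE 0.37, limma adjusted p = 2.99e-16), and TTLL3, a glycylase, fell (-1.04, limma adjusted p = 3.52e-04). Of 22 microtubule-associated proteins and motors, 3 fell and 2 rose, with a median of -0.16, and after centring 2 fell and 4 rose, with a median of 0.15. MAP1B, a filament-stabilising protein of neurons, rose to 125 and 98.3 in LARP1 KO, against 53.8 and 39.0 in parental RNA-seq libraries (1.25 with SE 0.27, limma adjusted p = 2.73e-05), as did MAP7D1 (1.06, limma adjusted p = 8.12e-05).

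**Figure D5:**
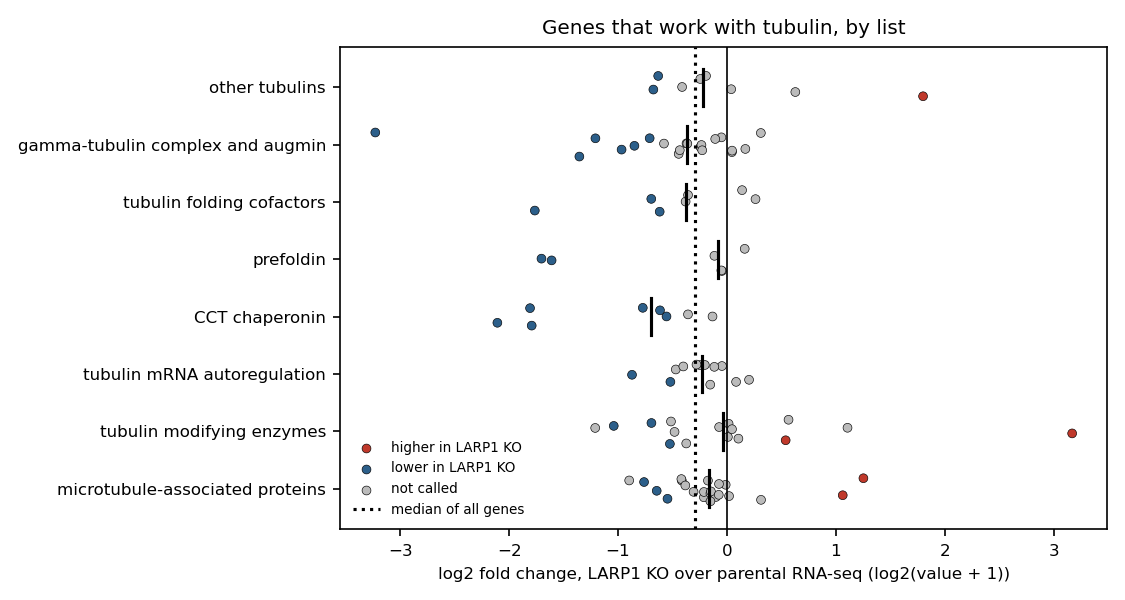
Log2 fold change, LARP1 KO over parental RNA-seq libraries, of each measured gene in 8 lists around tubulin (1 point per gene, coloured by limma's call, vertical spread arbitrary); black bars are list medians and the dotted line the median of all genes, -0.29. The CCT subunits have the lowest median, -0.69, and the lowest single gene is HAUS4 at -3.23.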

How the data were processed

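RNA of non-polysomal gradient fractions was sequenced, per the labels' protocols, after ribosomal RNA depletion, with paired reads of 150 bases. STAR 2.6, RSEM, SAMtools, DESeq2 and GRCh38 are named in the submitters' processing notes; how reads shared by paralogs were assigned is not given in the sources used here. The values the authors deposited are a signal: reads per gene, scaled by a single size factor for each library, called normalised read counts here. In each library 100% of these values were whole multiples of 1 read (tolerance 0.001 reads), so reads were recovered. The deposited table also gives the authors' log2 fold change and adjusted p-values.

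The design named edgeR for a count table and limma otherwise; as the table is normalised, limma-trend was used (version 3.58.1 under R 4.3.3), on log2(value + 1). The 14561 genes tested had values of 1 or more in no fewer than 2 of the 4 RNA-seq libraries. Tests were two-sided, p-values were adjusted after Benjamini and Hochberg, and a gene was called under 0.05. The pseudocount makes fold changes of low genes too small. The prior degrees of freedom were infinite, so the spread came from limma's trend over level and not from each gene. On the recovered reads edgeR (4.0.16) called 4130 genes and the same number of members, 5. DESeq2 (1.42.0) on the same reads called 3 members lower and 1 higher. TUBB2A was the member it did not call (DESeq2 adjusted p = 0.0658). The fit was tested on simulated data. No libraries agreed within sampling noise: the median chi-square was at least 1.77 times its expectation. Of the identifiers, 14535 matched GENCODE release 29; lengths are those of the main transcript.

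The members and the gene lists were chosen with earlier results of these data known. Named list genes were every measured tubulin and, per other list, the 2 genes with the smallest adjusted p. TTC5 and SCAPER were added because the background names them.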

Additional observations from a re-analysis of the deposited data

How the results depend on the processing

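Of 120 recomputed log2 fold changes of single members, 100 stayed on their side of the threshold, 19 calls were lost and 1 was gained; no called direction turned. The uncalled TUBB4B, TUBB6 and TUBG1 took the other sign after centring and with TMM factors, as did TUBB6 and TUBG1 when TSS libraries stood in for parental RNA-seq.

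The 4 lower members became 2 after centring, 2 with TMM factors, 1 without the intensity trend and 2 with the replicate block, and from 2 to 4 with 1 library left out; 2 remained without parental replicate 1 and 2 without parental replicate 2. The 1 higher member became 0 without the intensity trend and ranged from 0 to 1 with 1 library left out, 0 being the value without parental replicate 2. Over all genes, 3649 lower became 2365 after centring and 1962 without the intensity trend (1673 to 4294 with 1 library left out: 2164 without parental replicate 1, 1673 without parental replicate 2, 2348 without LARP1 KO replicate 2). The 549 higher became 2119 after centring, 1971 with TMM factors, 925 with the TSS libraries, 298 with DESeq2 and 282 without the trend (262 to 469 with 1 library left out: 262 without LARP1 KO replicate 1, 293 without parental replicate 1, 328 without parental replicate 2). Lower genes were 86.9% of all calls, or 52.7% after centring. Where 1 library was left alone in a group, it was assumed to vary like the other group. The cause of these moves was not tested, beyond the removal of the median shift that centring makes by construction.

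Whether LARP1 KO and parental RNA-seq libraries with the same replicate number share more than that number is not given in the sources used here. Their deviations from the group means correlated at -0.02 over genes. With 2 libraries per group this cannot tell whether they were handled together. The shares not divided by length, an alternative chosen after seeing the data, kept their direction for all 12 genes; TUBA1C then changed by -10.1 percentage points instead of -7.32 and TUBA1B by 8.79 instead of 6.12. Reads are not counted by molecule; TUBA1A and TUBB2A, with 39 to 200 reads per library, are the least precise members.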
